A study of Mus musculus with 6 samples.

Results

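The genes described here build the machinery that copies nuclear DNA, from the proteins that license replication origins to the polymerases, the sliding clamp and the enzymes that supply nucleotides. They are 40 named genes, all of which had a row among the 23494 genes of the deposited table and all of which passed the filter at a mean of 1 TPM (a length-corrected share of the transcripts of each library). The libraries come from wild type female C57BL/6 mice bearing B16F10 tumours, a transplanted melanoma line grown in the flank, and 3 mice injected daily with recombinant MANF (rMANF, 2 µg/kg) are compared with 3 mice injected with the vehicle, PBS. All 6 mice carried the tumour, their ages are not given in the labels, and the vehicle libraries carry column names that begin with IgG. The labels mention 8 mice per group, and how the 3 libraries of each group relate to these was not resolved here. MANF is a protein of the endoplasmic reticulum that is also secreted, and the question put to the data is how its injection alters gene expression in tissue labelled heart.

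Replication starts in separate steps. In G1 the origin recognition complex, Cdc6 and Cdt1 load the ring-shaped MCM helicase onto DNA, which licenses the origin. In S phase cyclin E with its kinase, together with Cdc45, Mcm10 and the GINS complex, turn the loaded ring into a moving helicase, behind which polymerases alpha, delta and epsilon lay down new strands. Many of these genes are transcribed under E2F factors as cells enter S phase. Heart muscle cells of adult mammals divide rarely, so in a heart these transcripts are usually attributed to other, dividing cells.

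The tissue label was not borne out by heart muscle markers. Of 14 such markers 11 had rows, and they summed to 8.59 to 12.1 TPM in the rMANF libraries and 8.26 to 68.7 TPM in the vehicle libraries. Of the 11, 6 averaged under 1 TPM, and the highest were Tnnt2 (4.86 to 11.5 TPM over the 6 libraries) and Mb (0.303 to 23.5 TPM). None of the 11 was at 0 in every library, and 3 lay lower with rMANF without overlap (against 9.02% of all genes tested). Melanocyte markers were low too: of 8 listed 3 had rows, 2 of them under 1 TPM. Those 3 summed to 7.44 to 12.6 TPM over the 6 libraries, mostly from Mitf, and Pmel stood at 0 to 0.341 TPM. The tissue of origin was not tested. Depth is unknown because TPM keeps no read number, and the genes above 0 TPM numbered 18830 to 19298 per library. Vehicle replicate 2 held the most skeletal muscle RNA, 1235 TPM over 12 markers, and vehicle replicates 1 and 3 held 111 and 27.8 TPM. Each of these exceeded every rMANF library, where replicates 1, 2 and 3 held 19.7, 8.56 and 7.13 TPM. Taken singly, 9 of the 12 were lower with rMANF without overlap and 0 higher (against 9.02% and 18.9% of all genes tested). The 14 macrophage and monocyte markers summed to 2156 to 2972 TPM in the rMANF libraries and 3659 to 4228 TPM in the vehicle libraries. Of these 14, 8 lay lower in every rMANF library than in any vehicle library (against 9.02% of all genes tested). T and NK cell markers summed to 24.9 to 43.8 TPM with rMANF and 46.0 to 111 TPM with vehicle. Of these 10, 6 lay lower and 1 higher without overlap (against 9.02% and 18.9% of all genes tested). Endothelial markers summed to 110.3 to 136 TPM with rMANF and 90.01 to 119 TPM with vehicle, and fibroblast markers to 257 to 342 TPM with rMANF and 329.99 to 478 TPM with vehicle. Without overlap, 4 of the 10 endothelial markers lay higher and 0 lower (against 18.9% and 9.02% of all genes tested). Of the 10 fibroblast markers 5 lay lower and 0 higher without overlap (against 9.02% and 18.9%). The part of these cell types in the differences described here was not tested, and in bulk RNA fewer cells of a type cannot be told apart from less RNA per cell.

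The replication genes were well expressed in every library. Together they made up 2077, 2095 and 1987 TPM in the 3 rMANF libraries and 2169, 1931 and 1968 TPM in the 3 vehicle libraries. The groups overlapped, with means of 2053 ± 57.7 TPM with rMANF and 2023 ± 128 TPM with vehicle (SD, n = 3 each). The median member stood at the 85.8th percentile of all genes in the table, and the lowest, Orc1, at the 58.9th. Levels spread over a wide range, from 5.25 TPM for Orc1 to 214 TPM for the sliding clamp gene Pcna, as means over the 6 libraries.

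**Figure D1:**
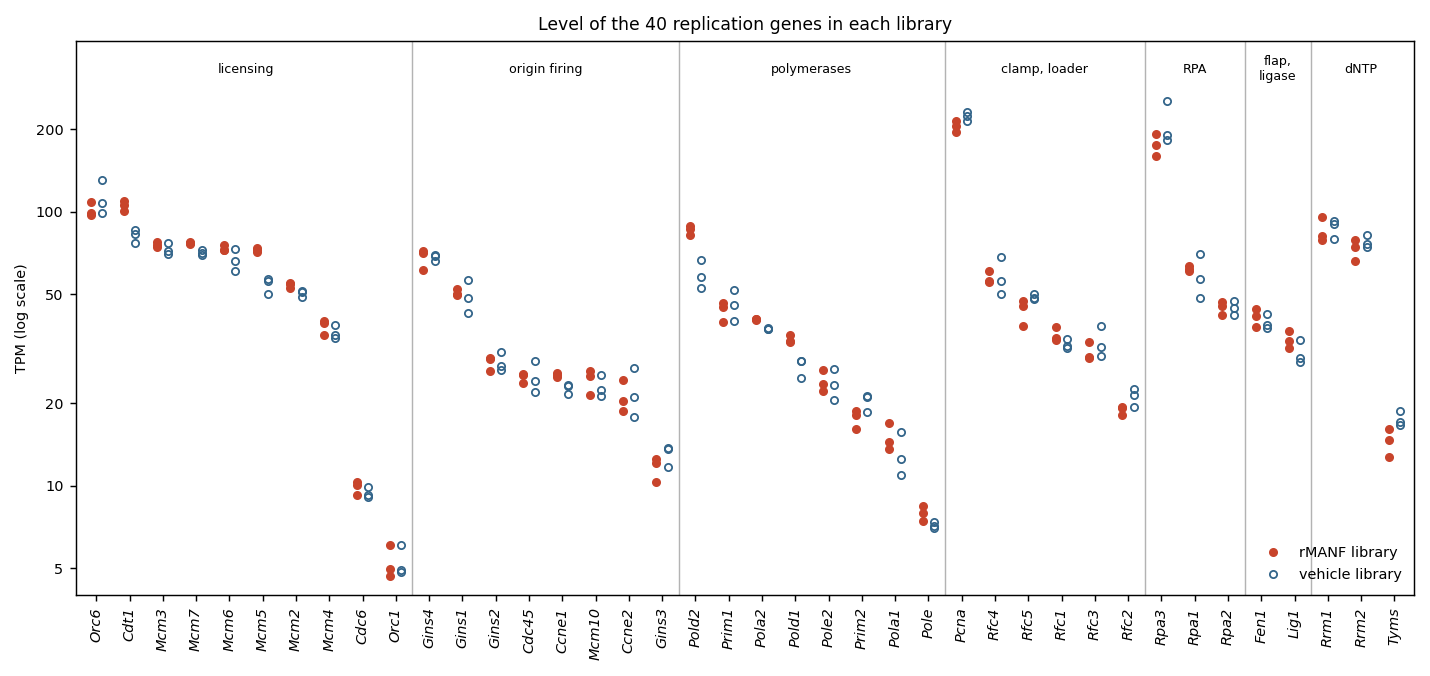
TPM on a log scale (vertical axis) of the 40 replication genes in the 3 rMANF libraries (filled points) and the 3 vehicle libraries (open points), grouped by role and ordered by mean level within each role. Pcna and Rpa3 stand highest and Orc1 lowest, and for most genes the points of the groups intermingle.

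Between the groups, 23 of the 40 genes lay higher (57.5%, against 57.3% of all genes tested) and 17 lower with rMANF, and none passed the test. The test was limma on log2(TPM + 1) over 12865 genes with Benjamini-Hochberg adjustment at 0.05, and it called 0 members and 0 genes in all (0% of genes tested), while 4 members lay higher and 1 lower at an unadjusted p under 0.05, against 13.9% and 6.63% of all genes tested. At an adjusted threshold of 0.10, limma called 3 members higher (Pold2, Mcm5 and Cdt1, against 1.94% of all genes tested) and 0 lower (against 0.793%), where 2.73% of all genes were called in either direction. These calls at 0.10 depended on the fit: 11 of 20 alternative fits called 0 members at 0.10, among them those without rMANF replicate 1, 2 or 3 or vehicle replicate 2, with the replicate block and with the GC trend removed. Library weights called the same 3 members already at 0.05, among 737 genes in all, in a fit whose vehicle side rested mostly on vehicle replicate 3. The median log2 difference over the members was 0.04, as over all genes tested (0.04). The range ran from −0.26 to 0.54. The 3 rMANF values all exceeded the 3 vehicle values in 9 members (22.5%, against 18.9% of all genes tested) and all lay under them in 3 members (7.5%, against 9.02%), shares close to that background. The 9 were Pold2, Mcm5, Cdt1, Pold1, Ccne1, Mcm7, Pola2, Mcm2 and Pole, and the 3 were Tyms, Rfc5 and Pcna. With 3 mice a group, the unadjusted 95% interval of a member's difference reached a median of 0.23 log2 units to either side. A difference smaller than that could typically not be told from 0 even before adjustment. Larger ones, up to 0.54 for Pold2, did not pass the adjusted test at 0.05 either.

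**Figure D2:**
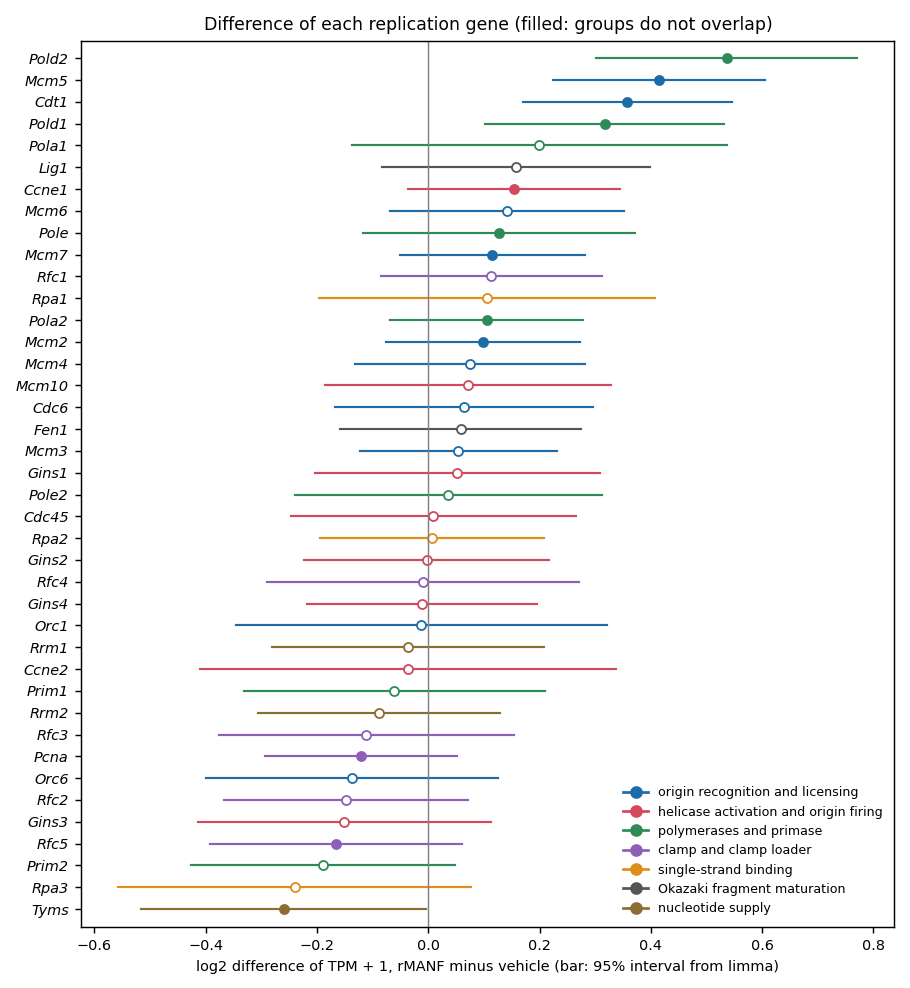
Log2 difference of TPM + 1 for each of the 40 genes, rMANF minus vehicle (horizontal axis), with 95% intervals from limma as bars and colours for roles. Filled points mark genes whose groups do not overlap. The intervals of Pold2, Mcm5, Cdt1 and Pold1 lie above 0 before adjustment and that of Tyms below it.

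Of the 10 origin licensing genes 8 lay higher with rMANF (80%, against 57.3% of all genes tested) and 4 did so without overlap (40%, against 18.9%), and the group as such was not tested. As a sum they stood at 614, 609 and 611 TPM with rMANF and 593, 540 and 545 TPM with vehicle, so each rMANF library exceeded each vehicle library. Their median difference of 0.09 ran from 0.033 under quantile normalization to 0.12 without vehicle replicate 1, and was 0.048 under median-of-ratios scaling. Mcm5 (chromosome 8, 75109569 to 75128439, GRCm38), one of the 6 subunits of the helicase ring, measured 73.5, 72.3 and 70.9 TPM with rMANF and 49.97, 55.6 and 56.6 TPM with vehicle. The lowest rMANF library was thus well above the highest vehicle library. The log2 difference was 0.41 ± 0.08 (SE), and limma's Benjamini-Hochberg adjusted p = 0.0893.

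The other ring subunits had smaller differences than Mcm5. Mcm7 measured 77.2, 75.9 and 76.9 TPM with rMANF and 72.3, 69.2 and 70.6 TPM with vehicle, and Mcm2 54.8, 52.6 and 54.2 TPM with rMANF and 51.4, 50.8 and 48.7 TPM with vehicle. Neither pair of groups overlapped, though the differences were small (0.12 ± 0.07 and 0.10 ± 0.08, SE). Mcm3, Mcm4 and Mcm6 overlapped between groups, with differences of 0.05, 0.08 and 0.14. Summed over the 6 subunits, the ring reached 392, 390 and 388 TPM with rMANF and 362, 341 and 349 TPM with vehicle. Without Mcm5 the remaining 5 summed to 318 ± 0.870 TPM with rMANF and 297 ± 13.7 TPM with vehicle (SD, n = 3 each). The subunits occupy the ring in equal number, yet their transcripts did not match: the ratio of the highest to the lowest subunit was 1.95 to 2.17 in the rMANF libraries and 1.99 to 2.03 in the vehicle libraries, with Mcm4 lowest in all 6. The ratio of Mcm5 to Mcm3 was 0.954 ± 0.0212 with rMANF and 0.743 ± 0.0794 with vehicle, without overlap between groups, and the ratio was not tested.

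Cdt1 (chromosome 8, 122568015 to 122573554), which brings the MCM ring to the origin, measured 100.1, 106 and 109.5 TPM with rMANF and 86.0, 77.0 and 82.6 TPM with vehicle. All rMANF values were the higher. Its difference was 0.36 ± 0.08 (SE; limma, adjusted p = 0.0986). Geminin, the protein that holds Cdt1 back after licensing, had a gene, Gmnn, that stood at 84.1 ± 2.20 TPM with rMANF and 89.5 ± 2.21 TPM with vehicle. The ratio of Cdt1 to Gmnn was 1.19, 1.29 and 1.27 in the rMANF libraries and 0.951, 0.846 and 0.950 in the vehicle libraries. Cdt1 lay higher and Gmnn lower without overlap, so their ratio could not overlap, and it was not tested. Gmnn was named after its values were seen. Cdc6, the partner of Cdt1 in loading, measured 9.87 ± 0.549 TPM with rMANF and 9.40 ± 0.430 TPM with vehicle, and its groups overlapped.

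The origin recognition subunits differed widely in level. Orc6, the smallest, stood at 108, 96.9 and 99.1 TPM with rMANF and 130.3, 107 and 99.0 TPM with vehicle, the high value being vehicle replicate 1. Orc1, the subunit whose protein comes and goes with the cell cycle in human cells, stood at 4.94, 6.05 and 4.68 TPM with rMANF and 4.91, 6.07 and 4.84 TPM with vehicle. Their groups overlapped, with differences of −0.14 ± 0.11 and −0.01 ± 0.14.

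**Figure D3:**
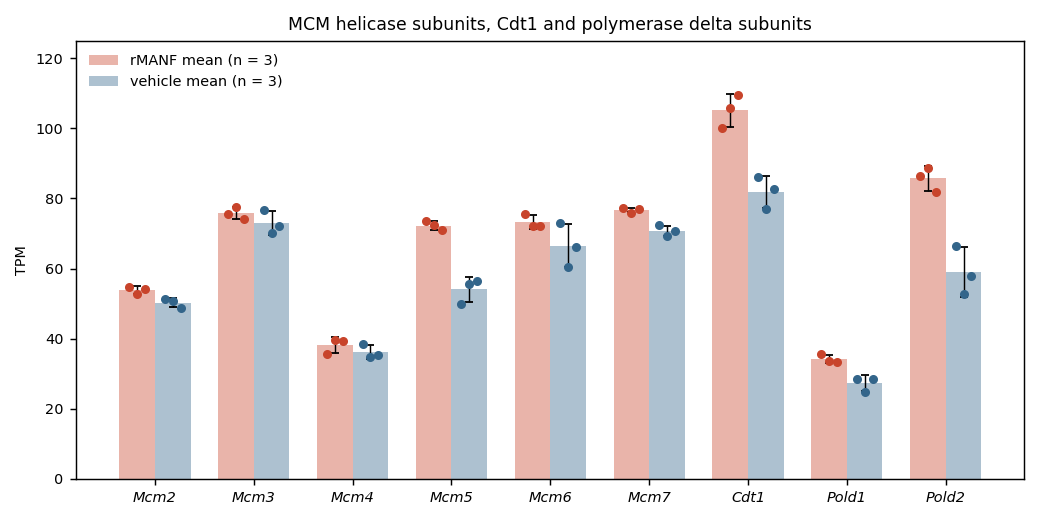
TPM (vertical axis, from 0) of the 6 MCM ring subunits, Cdt1 and 2 subunits of polymerase delta, with bars for the mean of 3 libraries, black error bars for the SD and points for libraries. Mcm5, Cdt1, Pold1 and Pold2 have all rMANF points above all vehicle points by a clear gap, and Mcm3, Mcm4 and Mcm6 do not.

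Genes that fire origins split evenly, 4 higher and 4 lower by sign, with a median difference of 0.00. Only Ccne1 had groups that did not overlap among these 8 (12.5% higher without overlap, against 18.9% of all genes tested). Ccne1 is the gene of cyclin E1, which activates the kinase Cdk2 at the start of S phase. It measured 24.9, 25.2 and 25.8 TPM with rMANF and 23.1, 21.7 and 23.2 TPM with vehicle, a difference of 0.15 ± 0.08 (SE; limma, adjusted p = 0.336). Its paralogue Ccne2 varied more between mice, at 20.4, 24.4 and 18.6 TPM with rMANF and 26.8, 17.8 and 21.04 TPM with vehicle, so that vehicle mice held both the highest and the lowest value. Cdc45 and Mcm10, which join the helicase, averaged 24.8 ± 1.05 and 24.2 ± 2.43 TPM with rMANF and 24.8 ± 3.27 and 23.0 ± 2.11 TPM with vehicle.

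The 4 GINS subunits, which work as a complex of one copy each, stood at different levels. Gins4 was the most abundant, at 61.1, 70.4 and 71.7 TPM with rMANF and 69.5, 65.8 and 69.0 TPM with vehicle. Gins3 was the least abundant, at 10.3, 12.1 and 12.4 TPM with rMANF and 13.7, 11.7 and 13.6 TPM with vehicle. In both cases the groups overlapped. The ratio of the highest to the lowest GINS subunit was 5.83 ± 0.0733 with rMANF and 5.26 ± 0.313 with vehicle. Gins1 and Gins2 differed by 0.05 ± 0.11 and 0.00 ± 0.10 (SE).

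Polymerase genes held the largest difference among the members. Pold2 (chromosome 11, 5872180 to 5878292), the second subunit of polymerase delta, which copies mainly the lagging strand, measured 86.5, 88.7 and 81.9 TPM with rMANF and 66.5, 52.7 and 57.8 TPM with vehicle. All rMANF libraries were higher than all vehicle libraries, by 0.54 ± 0.10 on the log2 scale (SE; limma, adjusted p = 0.0893). Pold1 (chromosome 7, 44532746 to 44548849), the catalytic subunit of the same enzyme, measured 35.5, 33.6 and 33.4 TPM with rMANF and 28.6, 24.7 and 28.6 TPM with vehicle. It lay higher without overlap too, by 0.32 ± 0.09 (SE; limma, adjusted p = 0.135). Pold2 exceeded Pold1 in every library, by a ratio of 2.51 ± 0.113 with rMANF and 2.16 ± 0.155 with vehicle.

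Polymerase epsilon, which copies mainly the leading strand, showed little of this. Pole, its catalytic subunit, measured 7.96, 8.44 and 7.40 TPM with rMANF and 7.38, 7.01 and 7.12 TPM with vehicle. The groups just failed to overlap, 7.40 TPM against 7.38 TPM being the nearest values, and the difference was 0.13 ± 0.11 (SE; limma, adjusted p = 0.538). Pole2 averaged 24.0 ± 2.14 TPM with rMANF and 23.4 ± 3.03 TPM with vehicle.

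Polymerase alpha and primase start each new strand with a short RNA and DNA primer. Pola2, the regulatory subunit, was the steadiest gene of this group at 40.7, 40.4 and 40.03 TPM with rMANF and 37.3, 37.7 and 37.3 TPM with vehicle. The groups stood apart by a small margin (0.11 ± 0.07, SE; limma, adjusted p = 0.469). The catalytic subunit Pola1 overlapped, at 14.4, 16.9 and 13.6 TPM with rMANF and 15.6, 10.9 and 12.4 TPM with vehicle. Of the primase genes, Prim1, the catalytic subunit, averaged 43.6 ± 3.69 TPM with rMANF and 45.7 ± 5.89 TPM with vehicle. Prim2, the large subunit, leaned lower at 16.1, 18.1 and 18.8 TPM with rMANF and 21.3, 18.5 and 20.97 TPM with vehicle, a difference of −0.19 ± 0.10 (SE; limma, adjusted p = 0.341). One rMANF value lay above the lowest vehicle value.

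Of the 6 genes of the clamp and its loader 5 lay lower with rMANF (83.3%, against 42.7% of all genes tested). Their median difference of −0.12 was −0.06 without vehicle replicate 1, −0.03 with library weights, where Rfc3 and Rfc4 lay higher too, −0.06 with the GC trend removed and 0.0015 without vehicle replicates 1 and 2 together. Pcna (chromosome 2, 132249162 to 132253314), the sliding clamp that tethers polymerases to DNA, measured 205, 213 and 195 TPM with rMANF and 215, 230.1 and 223 TPM with vehicle. Every rMANF value was below every vehicle value, by −0.12 ± 0.07 (SE; limma, adjusted p = 0.405). Reads of Pcna may be shared with Pcna-ps2, a gene model named as its pseudogene, which was listed at 43.1 TPM with rMANF and 47.1 TPM with vehicle, so the level of Pcna is uncertain to that extent.

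Among the 5 loader subunits, Rfc5 stood at 47.3, 45.1 and 38.3 TPM with rMANF and 48.4, 49.8 and 48.1 TPM with vehicle. It did not overlap, and rMANF replicate 3 was the lowest by a margin (difference −0.17 ± 0.10, SE; limma, adjusted p = 0.383). Rfc2 measured 19.4, 19.2 and 18.1 TPM with rMANF and 22.6, 21.4 and 19.3 TPM with vehicle and was the lowest of the loader genes by mean. Rfc4 was the highest, at 57.3 ± 2.82 TPM with rMANF and 58.1 ± 9.44 TPM with vehicle. Rfc1, the large subunit, was the one gene of this group that lay higher (35.5 ± 2.09 TPM with rMANF and 32.7 ± 1.31 TPM with vehicle), and Rfc3 averaged 30.7 ± 2.33 TPM with rMANF and 33.4 ± 4.37 TPM with vehicle.

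Replication protein A coats the single strands behind the helicase as a complex of 3 subunits. Rpa3, the smallest subunit, reached 191, 174 and 159 TPM with rMANF and 253, 190.3 and 182 TPM with vehicle. The groups overlapped, since rMANF replicate 1 exceeded vehicle replicates 2 and 3, and the difference was −0.24 ± 0.14 (SE; limma, adjusted p = 0.365). The highest value was that of vehicle replicate 1, and over the 20 alternative fits the difference ran from −0.33 to −0.059. Rpa1, the large subunit, measured 61.6, 63.3 and 60.9 TPM with rMANF and 69.8, 48.2 and 56.5 TPM with vehicle. Rpa2, between them in size, measured 46.6, 45.4 and 42.1 TPM with rMANF and 41.9, 47.0 and 44.6 TPM with vehicle. Transcripts of Rpa3 thus outnumbered those of Rpa1 by a ratio of 2.82 ± 0.257 with rMANF and 3.60 ± 0.368 with vehicle.

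Of the genes that finish lagging strand fragments, Fen1, which trims flaps, measured 41.5, 44.1 and 37.8 TPM with rMANF and 37.5, 38.7 and 42.1 TPM with vehicle, and Lig1, which seals nicks, 36.7, 33.8 and 31.7 TPM with rMANF and 34.0, 28.3 and 29.1 TPM with vehicle. Both overlapped between groups (differences 0.06 ± 0.09 and 0.16 ± 0.10, SE).

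All 3 genes of nucleotide supply lay lower (against 42.7% of all genes tested), with a median difference of −0.09 that was −0.02 without rMANF replicate 3 and −0.02 with the GC trend removed. Tyms (chromosome 5, 30058202 to 30073617), thymidylate synthase, measured 16.1, 14.6 and 12.7 TPM with rMANF and 17.1, 18.7 and 16.6 TPM with vehicle. The groups stood apart, with the largest lower difference of the members, −0.26 ± 0.11 (SE; limma, adjusted p = 0.239). Rrm1 and Rrm2, the subunits of ribonucleotide reductase, overlapped. Rrm1 measured 81.3, 95.9 and 78.6 TPM with rMANF and 92.7, 79.3 and 90.01 TPM with vehicle, and Rrm2 averaged 73.0 ± 6.58 TPM with rMANF and 77.5 ± 4.15 TPM with vehicle.

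Promoter sequence was compared because genes of this module are known targets of E2F factors. RefSeq windows on GRCm38.p6, from 250 bases before to 50 after the start, were found for 32 of the 40 genes. The letters TTTNNCGC, a common form of the E2F site, occurred on either strand in 14 of these 32 (43.8%), against 5.93% of the 27025 genes with a window. The letters CCAAT, bound by the factor NF-Y, occurred in 21 of 32 (65.6%), against 41.1% of all genes with a window. Of the 9 genes without overlap that lay higher, 8 had a window and 4 held the E2F letters (Cdt1, Mcm5, Mcm7 and Pold1). Of the 3 that lay lower, 3 had a window and 1, Tyms, held them. Among the 21 genes that overlapped and had a window, 9 held them. The 250 bases before the start are shown for the 4 members of smallest p that lay higher, for Mcm6 as a ring subunit with the same paired site as Mcm5, and for the 3 that lay lower without overlap. Capitals mark TTTNNCGC or its reverse complement GCGNNAAA.
Pold2 (chr11:5878257-5878506, minus strand): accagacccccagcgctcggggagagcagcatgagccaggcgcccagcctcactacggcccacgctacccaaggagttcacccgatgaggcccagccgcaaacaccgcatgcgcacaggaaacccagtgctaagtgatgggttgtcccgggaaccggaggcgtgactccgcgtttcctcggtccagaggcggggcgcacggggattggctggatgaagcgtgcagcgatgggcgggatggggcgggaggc
Mcm5 (chr8:75109259-75109508, plus strand): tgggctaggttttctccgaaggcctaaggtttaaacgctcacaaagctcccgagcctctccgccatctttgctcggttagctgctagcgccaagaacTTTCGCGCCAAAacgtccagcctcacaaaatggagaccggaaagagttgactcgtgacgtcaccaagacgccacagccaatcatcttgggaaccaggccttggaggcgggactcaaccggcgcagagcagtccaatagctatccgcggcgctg
Cdt1 (chr8:122567765-122568014, plus strand): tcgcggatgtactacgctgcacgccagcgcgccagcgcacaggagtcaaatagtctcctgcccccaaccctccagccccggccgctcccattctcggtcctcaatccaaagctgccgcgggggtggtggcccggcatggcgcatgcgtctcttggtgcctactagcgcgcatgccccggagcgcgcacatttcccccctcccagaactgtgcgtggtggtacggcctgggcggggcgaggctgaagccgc
Pold1 (chr7:44548816-44549065, minus strand): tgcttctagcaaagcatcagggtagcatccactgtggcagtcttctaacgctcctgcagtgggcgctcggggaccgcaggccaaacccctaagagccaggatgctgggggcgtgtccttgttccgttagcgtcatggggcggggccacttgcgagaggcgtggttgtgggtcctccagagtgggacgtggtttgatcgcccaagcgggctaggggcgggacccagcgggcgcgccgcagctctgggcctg
Mcm6 (chr1:128359706-128359955, minus strand): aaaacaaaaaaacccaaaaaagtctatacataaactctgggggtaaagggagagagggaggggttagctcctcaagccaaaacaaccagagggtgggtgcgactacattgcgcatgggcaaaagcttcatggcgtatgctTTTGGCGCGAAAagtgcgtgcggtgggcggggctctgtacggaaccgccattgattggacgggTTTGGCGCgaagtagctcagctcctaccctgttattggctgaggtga
Tyms (chr5:30073626-30073875, minus strand): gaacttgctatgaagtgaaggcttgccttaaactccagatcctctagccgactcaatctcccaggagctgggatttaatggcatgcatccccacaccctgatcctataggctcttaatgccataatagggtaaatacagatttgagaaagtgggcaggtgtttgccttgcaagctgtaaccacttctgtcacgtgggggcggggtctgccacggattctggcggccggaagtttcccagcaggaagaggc
Rfc5 (chr5:117389024-117389273, minus strand): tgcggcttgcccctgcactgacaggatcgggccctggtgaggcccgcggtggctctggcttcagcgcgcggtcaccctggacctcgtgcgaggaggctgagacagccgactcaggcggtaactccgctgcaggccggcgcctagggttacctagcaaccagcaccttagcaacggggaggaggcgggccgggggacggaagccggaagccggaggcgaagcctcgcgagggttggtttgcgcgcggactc
Pcna (chr2:132253181-132253430, minus strand): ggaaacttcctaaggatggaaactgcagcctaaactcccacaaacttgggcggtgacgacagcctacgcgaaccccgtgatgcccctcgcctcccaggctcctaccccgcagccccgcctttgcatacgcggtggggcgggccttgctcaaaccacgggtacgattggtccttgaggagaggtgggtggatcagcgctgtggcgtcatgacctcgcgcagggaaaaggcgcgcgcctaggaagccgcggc

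Mcm5 and Mcm6 each held a site read on both strands, in which the forward and the reverse match overlap by 4 bases, 153 bases before the start in Mcm5 and 110 bases before it in Mcm6, and Mcm6 held a further match 47 bases before the start. Mcm5 differed by 0.41 and Mcm6 by 0.14 between groups. Pold2, the gene of the largest difference, held none of these letters in either of its 2 windows. The matches of Cdt1, Pold1 and Tyms lay in the 50 bases after the start. A match is a run of letters and not a measured site.

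Differences of the members followed the GC content of their transcripts. Pold2, Cdt1 and Pold1 have transcripts of 58.7%, 58.8% and 60.7% GC, the highest of the 40, and the 4 members above 55% all lay higher without overlap, as did 39.6% of all genes tested in that class, with a median difference of 0.34 over the 4 members. The 12 members between 50% and 55% had a median of 0.08, the 17 between 45% and 50% −0.01 and the 7 below 45% −0.04. All genes tested followed the same order, with medians of 0.19, 0.08, 0.00 and −0.05 from the highest to the lowest class. Across the 40 members Pearson's r between GC content and the difference was 0.58 and Spearman's rho 0.52, and across the 12828 genes tested that have a value r was 0.29 and rho 0.38. Genes are not independent replicates, and all of these differences come from the same 6 libraries. With each library's GC trend removed, an alternative chosen after seeing the data, Mcm5 kept 0.41 ± 0.07 (SE), Pold2 stood at 0.38 ± 0.13, Cdt1 at 0.20 ± 0.10 and Pold1 at 0.11 ± 0.11 (limma, adjusted p = 0.174, 0.215, 0.336 and 0.613). The Mcm5 transcript has 51.9% GC, near the median of 50.1% over all genes tested, so this removal could change its difference little. Cdt1 and Pold1, at the GC-rich end, were smaller by more than 1.5 times. The cause of these differences was not tested.

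**Figure D4:**
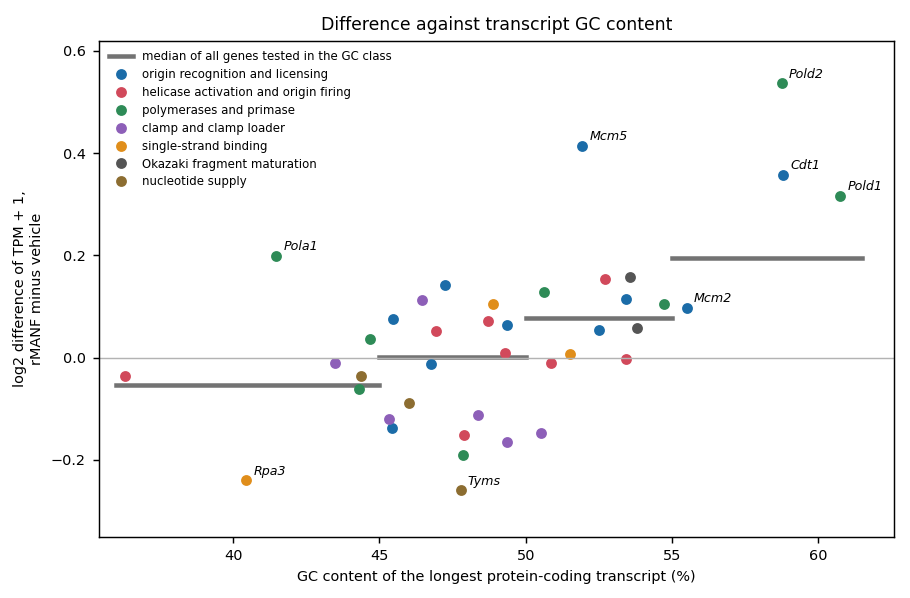
Log2 difference of TPM + 1, rMANF minus vehicle (vertical axis), against the GC content of each member's longest protein-coding transcript in percent (horizontal axis), coloured by role. Grey lines give the median of all genes tested in each GC class, from −0.05 below 45% to 0.19 above 55%. Pold2, Cdt1 and Pold1 sit at the GC-rich end, and Mcm5 stands above genes of like GC content.

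The libraries also differed within groups. Vehicle replicate 1 held the highest value of 14 of the 40 members (35%, against 33.0% of all genes tested), among them Rpa3, Orc6, Rfc4, Prim1 and Gins1, and vehicle replicate 2 held the lowest value of 18 (45%, against 37.7%). Vehicle replicate 3 held the highest value of none (0 of 40, against 8.43% of all genes tested). The median SD between mice, on log2(TPM + 1), was 0.08 with rMANF and 0.11 with vehicle for the members, and 0.11 with rMANF and 0.17 with vehicle for all genes tested. Skeletal muscle RNA was also highest in vehicle replicate 2, and its part in the low values of that library was not tested. Without vehicle replicate 2 the difference in the summed level of the members, rMANF minus vehicle, was −15.2 TPM, where all 6 libraries gave 30.5 TPM.

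**Figure D5:**
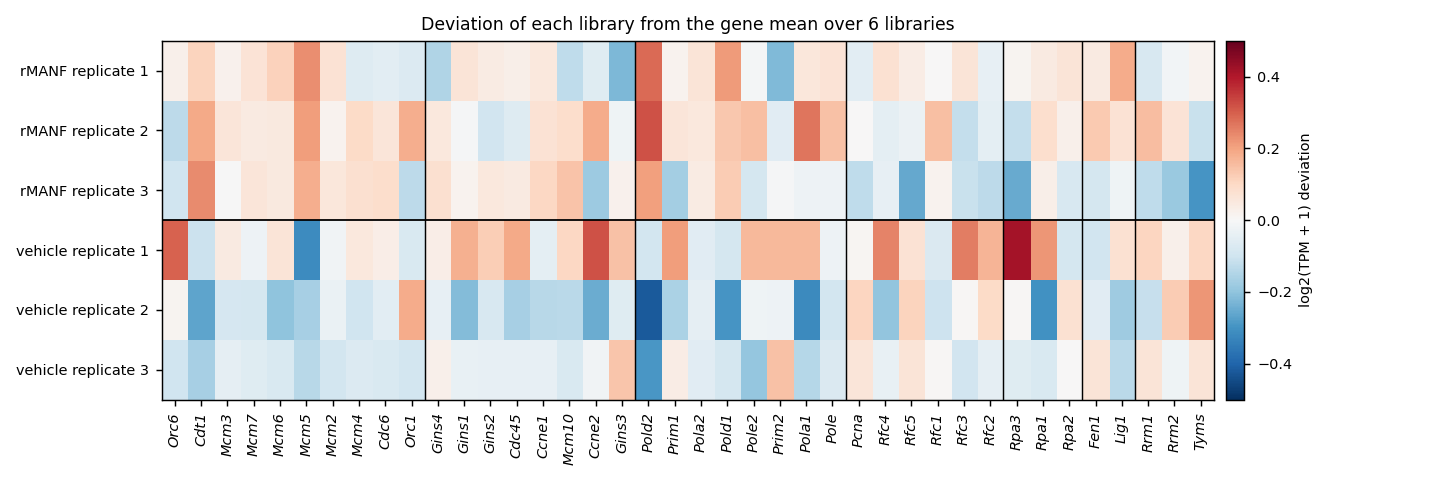
Deviation of log2(TPM + 1) in each library (rows, rMANF above vehicle) from the mean over the 6 libraries, for the 40 genes (columns, by role). Vehicle replicate 1 is mostly high outside Mcm5, Cdt1 and Pold2, and vehicle replicate 2 is mostly low.

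Further genes of replication gave a mixed picture. In a list of 52 others (origin subunits, checkpoint and fork proteins, chromatin assembly, nucleotide enzymes), 26 lay higher and 26 lower, 0 passed limma's adjusted test, and 10 lay above and 11 below without overlap (19.2% and 21.2%, against 18.9% and 9.02% of all genes tested). Those of smallest p that lay higher were Dnmt1, which copies DNA methylation at the fork (41.8, 43.0 and 38.1 TPM with rMANF, 28.2, 27.3 and 32.0 TPM with vehicle), the histone chaperone gene Chaf1b (23.5 ± 1.94 TPM with rMANF, 18.5 ± 2.31 TPM with vehicle) and Tk1, thymidine kinase. Dnmt1 differed by 0.48 ± 0.10 (SE; limma, adjusted p = 0.0893). Among those that lay lower were the deoxycytidine kinase gene Dck (17.3 ± 1.70 TPM with rMANF, 21.3 ± 0.269 TPM with vehicle) and Cdc7, the kinase that activates the MCM ring (9.10 ± 0.697 TPM with rMANF, 11.9 ± 1.58 TPM with vehicle). Tk1, of the salvage route to thymidylate, leaned higher (103 ± 3.51 TPM with rMANF and 88.2 ± 3.50 TPM with vehicle), where Tyms leaned lower.

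Regulators of S phase entry were read beside the module. Of 28 genes of the E2F and RB network 26 were tested, 17 lay higher and 9 lower, and 0 passed. Without overlap 4 lay above and 0 below (15.4% and 0%, against 18.9% and 9.02% of all genes tested). The 4 were E2f1, E2f4, Mybl2 and E2f8. E2f1, the activator that drives many replication genes, measured 33.2, 34.0 and 38.3 TPM with rMANF and 23.3, 25.5 and 28.8 TPM with vehicle, a difference of 0.43 ± 0.11 (SE; limma, adjusted p = 0.111), and its transcript has 58.3% GC. E2f4, a repressor partner of the RB family, averaged 86.6 ± 1.55 TPM with rMANF and 68.5 ± 8.75 TPM with vehicle. Mybl2, which helps activate mitotic genes, averaged 29.0 ± 4.07 TPM with rMANF and 22.8 ± 0.900 TPM with vehicle.

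Mitosis genes served as the nearest neighbour of the module in dividing cells. Their 30 members summed to 2283 ± 60.5 TPM with rMANF and 2338 ± 111 TPM with vehicle (SD, n = 3 each). The ratio of replication to mitosis sums was 0.937, 0.897 and 0.866 with rMANF and 0.882, 0.861 and 0.852 with vehicle, and the groups overlapped. By sign 14 mitosis genes lay higher and 16 lower (median −0.02), 0 passed, and 2 lay above and 5 below without overlap (6.67% and 16.7%, against 18.9% and 9.02% of all genes tested). Aurkb, the kinase of the chromosomal passenger complex, lay higher (61.8 ± 2.78 TPM with rMANF and 48.2 ± 4.12 TPM with vehicle), and the kinetochore gene Nuf2 lay lower (31.8 ± 1.76 TPM with rMANF and 43.5 ± 7.66 TPM with vehicle). Mki67, the proliferation marker, measured 14.5, 16.7 and 14.1 TPM with rMANF and 22.3, 17.5 and 17.1 TPM with vehicle, a difference of −0.30 ± 0.13 (SE; limma, adjusted p = 0.238).

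Some members share exons with a gene on the other strand, and the library kit does not mark strand, so their reads cannot be told apart. Gins2 shares 2758 exon bases with Gse1, Fen1 1909 bases with the antisense gene model Gm10143, Rfc2 952 bases with Lat2, Ccne2 609 bases with Ints8 and Rfc5 499 bases with Wsb2. Mcm7 shares 321 bases with Ap4m1 and 64 with Cops6. No such overlap was found for Mcm5, Cdt1, Pold1, Pold2, Pcna or Tyms.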

How the data were processed

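RNA was measured in 6 libraries labelled heart, 3 rMANF and 3 vehicle, which the labels call biological replicates, read here as separate mice (if they were not, p-values measure only the spread between samples). The tools were Salmon 0.14.1, HTSeq 0.11.0, fastp and cutadapt with build mm10, per the submitters' processing notes, and neither their roles nor the annotation is stated in the sources used here. Values were deposited by the authors as log2 TPM per gene, with −9 standing for 0 TPM. Converted back, each library summed to within 19.5 TPM of the full scale, so no offset was added. Depth is unknown, and the number of mice limits precision.

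Genes averaging 1 TPM or more, 12865 in all, were fitted with limma 3.58.1 in R 4.3.3 (log2(TPM + 1), variance trend, no covariates, two-sided), with Benjamini-Hochberg adjustment over all of them. The pseudocount understates changes of low genes. The procedure was tested on simulated data, where the planted changes were larger than any member's difference here. That test does not show whether changes as small as these would be found. The members and gene lists were chosen with earlier results of these data known. Named with values per library were members of smallest p, members without overlap and the highest and lowest of each role, others being given as means or differences. From the other lists up to 3 genes per direction of smallest p were named, except 1 gene that is not reported here, and Gmnn and E2f8 were named after their values were seen. Coordinates, exon overlaps and GC content (12828 of 12865 genes, 99.7%) were taken from GENCODE M21 (GRCm38, also called mm10), and promoters from RefSeq on GRCm38.p6. The alternatives tried are given in the closing section. The matching replicate numbers of the groups did not mark shared material in the labels.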

Additional observations from a re-analysis of the deposited data

How the results depend on the processing

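No member was called at 0.05 (a count of 0, with 5 at an unadjusted p under 0.05), which held in 19 of the 20 alternative fits. Library weights called 737 genes in all and 3 members, Pold2, Mcm5 and Cdt1 (limma, adjusted p = 0.0235, 0.0288 and 0.0325). They gave vehicle replicates 1 and 2 the least weight (0.277 and 0.538) and vehicle replicate 3 the most (3.00). The vehicle side of that fit thus rested mostly on vehicle replicate 3. At an adjusted p threshold of 0.10 the same 3 were called among 351 genes, but 11 of the 20 alternative fits called 0 members there. These were no filter (1 gene in all), rescaling, variances without trend and GC trend removal (0 genes each), the replicate block (113 genes), GC trend removal with the block (86 genes), and the fits without rMANF replicate 1 (3 genes), rMANF replicate 2 or 3 or vehicle replicate 2 (0 genes each) and vehicle replicates 1 and 2 together (15 genes). The other 9 called 2 to 4 members. Among all genes, 0 were called at 0.05 as deposited, 2 without rMANF replicate 1, 4 without vehicle replicate 1, 0 without any other single library, and 13 without vehicle replicates 1 and 2 together, which leaves a lone vehicle library assumed to vary like the rest. The replicate number as a block gave 3 genes and 0 members, and 25 genes and 0 members with the GC trend removed as well. Same-numbered libraries did not deviate together across genes (r = −0.07, 0.03 and 0.05). A correlation over all genes cannot show whether they shared handling that affected some genes, and this was not tested.

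The median over members (0.04) ran from 0.024 to 0.10 with 1 library left out and was −0.0086 under quantile normalization, where the median of all genes tested was 0.02. The difference in summed level (30.5 TPM) was −23.0 TPM under median-of-ratios scaling and −31.0 TPM under quantile normalization, and −15.2 to 103 TPM with 1 library left out. Of the 40 members 25 kept their sign in all 20 fits, though some of these fits could not change a sign. Among the 25 were Pold2 (0.38 to 0.63), Mcm5 (0.35 to 0.45), Cdt1 (0.20 to 0.39), Pold1 (0.11 to 0.35) and Tyms (−0.33 to −0.18). The other 15 turned in at least 1, all from differences within 0.14 of 0, and the cause was not tested. Log2 differences of opposite sign were, under median-of-ratios scaling, Cdc45 −0.028, Pole2 −0.0022 and Rpa2 −0.032, under quantile normalization, Cdc45 −0.056, Gins1 −0.015, Pole2 −0.026 and Rpa2 −0.060, and after rescaling without mitochondrial and haemoglobin genes, Cdc45 −0.0085 and Rpa2 −0.012. With library weights they were Orc1 0.034, Gins2 0.039, Rfc3 0.011, Rfc4 0.043 and Fen1 −0.0087. With the GC trend removed, with or without the replicate block, they were Orc1 0.048, Gins4 0.0014, Ccne2 0.15, Prim1 0.029, Rfc4 0.086 and Rrm1 0.052. Without vehicle replicates 1 and 2 together they were Orc1 0.085, Orc6 0.032, Gins2 0.039, Rfc3 0.039, Rfc4 0.034 and Fen1 −0.035. With 1 library left out the ranges were Orc1 −0.11 to 0.077, Cdc45 −0.071 to 0.11, Gins1 −0.044 to 0.15, Gins2 −0.042 to 0.058, Gins4 −0.053 to 0.061, Ccne2 −0.17 to 0.11, Prim1 −0.15 to 0.029, Pole2 −0.053 to 0.13, Rfc4 −0.11 to 0.11, Rpa1 −0.020 to 0.24, Rpa2 −0.036 to 0.048 and Rrm1 −0.12 to 0.019. The removal of the GC trend, alone and with the block, and that of 2 vehicle libraries were chosen after seeing the data. Pseudocounts of 0.1 and 5 TPM turned no member. No filter or one at 5 TPM, variances without trend or robust, and the replicate block alone leave every difference as it was. These fits could not turn a sign, and the block added to GC trend removal repeats the differences of that removal.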
